A study of Mus musculus with 14 samples.

Results

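The mouse genes named Zfp followed by a number form a set of 259 expressed genes, most of which encode C2H2 zinc finger proteins. They were chosen by name and by a measured value. Of 374 genes with such a name in 2 count tables, *Zfp36* and *Zfp42* were left out, and the remaining 372 were selected on a mean of at least 1 FPKM (counts scaled to exon length and to the sum of the library) over the 2 libraries taken at 0 h. The 259 Zfp genes are compared with all 11869 genes at the same threshold, out of 52459 genes in the tables. The lowest genes inside the threshold were *Zfp202* (1.02 FPKM) and *Zfp750* (1.01 FPKM), and the highest outside it were *Zfp551* (0.982 FPKM) and *Zfp972* (0.975 FPKM).

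The cells were E14Tg2a mouse embryonic stem cells (mESCs), either wild type (WT) or a METTL14 R255K line, in which a CRISPR-Cas9 knock-in put a lysine in place of an arginine of the endogenous METTL14, in colonies grown from single cells. METTL14 is the partner of METTL3 in the complex that writes N6-methyladenosine (m6A) on mRNA. All cells were grown in serum with LIF. For MeRIP-seq, untreated cells of each genotype gave 2 IP and 2 input libraries and 1 deposited peak list. For mRNA lifetime, cells received 5 µg/ml actinomycin D, which blocks transcription, and were harvested at 0, 4 and 8 h, with 1 library per genotype and time. No value therefore has a replicate, no test between genotypes was possible, and intervals (95%) cover counting error only. How many colonies stood behind the R255K libraries is not given in the sources used here. Differences between the genotypes cannot be told apart from differences between these libraries or lines.

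C2H2 zinc fingers are short folds held by 2 cysteines and 2 histidines around a zinc ion, and arrays of them read DNA, and sometimes RNA, base by base. Many mouse Zfp proteins also carry a KRAB domain, which recruits TRIM28 (KAP1) and through it the histone methyltransferase SETDB1 to silence retroelements and imprinted loci, a task with particular weight in embryonic stem cells. These genes lie in clusters that grew by duplication, and their finger arrays are usually encoded by a single long last exon. m6A on mRNA is bound by YTH proteins, which promote decay of the transcript.

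Translation of the longest coding sequence of each gene gave a protein for 256 of the 259 Zfp genes. The C2H2 finger pattern occurred at least once in 249 of them, with a median of 10 fingers and at most 36, in *Zfp142*. No finger was found in *Zfp185*, *Zfp330*, *Zfp365*, *Zfp750*, *Zfp839*, *Zfp935* and *Zfp993*, and no protein was obtained for *Zfp125*, *Zfp640* and *Zfp978*. A KRAB pattern (at least 10 of 14 conserved residues) was found in 138. The last exon had a median length of 2266 bp and held a median of 84.4% of the coding sequence. Chromosome 7 carried 69 of the genes, chromosome 17 carried 28 and chromosome 4 carried 24, and 148 lay within 250 kb of another Zfp gene. Exons of 64 overlapped exons of another gene, so their reads cannot all be assigned. In 16 genes, most of them on chromosome 4, over 20% of all 50-base stretches recurred in another Zfp transcript, which makes their counts uncertain.

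The sequences under the m6A peaks are shown for the finger arrays, which most of these proteins share. Each window below covers 101 bases around a WT peak summit, lies wholly in coding sequence, is read 5′ to 3′ on the strand of the gene from mm10 (GRCm38), and has GGAC, AAAC and GAGAAACC in capitals. GGAC is the preferred core of the m6A consensus and AAAC a weaker form, and GAGAAACC encodes the Glu-Lys-Pro of the linker that joins neighbouring fingers. The first 3 windows carry this linker and are those with the highest fold enrichment among such peaks in the finger array (the span from the first to the last finger).
*Zfp329*, chr7:12810955-12811055 (minus strand): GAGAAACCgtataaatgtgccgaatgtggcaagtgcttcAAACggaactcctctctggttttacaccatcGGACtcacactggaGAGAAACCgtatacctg
*Zfp953*, chr13:67343303-67343403 (minus strand): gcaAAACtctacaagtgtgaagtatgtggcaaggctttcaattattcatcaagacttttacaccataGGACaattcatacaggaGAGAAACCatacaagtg
*Zfp2*, chr11:50899905-50900005 (minus strand): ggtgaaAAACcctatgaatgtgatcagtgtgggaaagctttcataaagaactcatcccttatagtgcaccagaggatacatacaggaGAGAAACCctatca

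The *Zfp329* window holds the linker motif 2 times, once on either side of a finger, and the WT fold enrichment of its peak was 15.4, against 6.63 for the overlapping R255K peak. For *Zfp953* the values were 11.1 in WT and 12.4 in R255K, and for *Zfp2* they were 10.2 and 6.14. The next 3 windows are the strongest finger array peaks of the WT list that had no overlapping peak in the R255K list.
*Zfp3*, chr11:70772186-70772286 (plus strand): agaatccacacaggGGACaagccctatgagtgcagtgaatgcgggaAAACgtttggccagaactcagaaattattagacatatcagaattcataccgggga
*Zfp791*, chr8:85110710-85110810 (minus strand): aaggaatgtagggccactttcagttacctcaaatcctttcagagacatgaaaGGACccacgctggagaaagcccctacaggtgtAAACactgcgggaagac
*Zfp11*, chr5:129656508-129656608 (minus strand): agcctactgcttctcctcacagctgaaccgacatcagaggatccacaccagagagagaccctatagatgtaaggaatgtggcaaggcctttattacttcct

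The WT fold enrichments were 19.2 for *Zfp3*, 13.6 for *Zfp791* and 11.4 for *Zfp11*. *Zfp3* and *Zfp791* had 1 GGAC and 1 AAAC each within these 101 bases, and *Zfp11* had neither. For comparison, these are the strongest finger array peaks that were overlapped in R255K cells.
*Zfp827*, chr8:79076212-79076312 (plus strand): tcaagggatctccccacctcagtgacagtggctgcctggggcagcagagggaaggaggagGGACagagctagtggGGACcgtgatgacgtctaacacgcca
*Zfp865*, chr7:5031292-5031392 (plus strand): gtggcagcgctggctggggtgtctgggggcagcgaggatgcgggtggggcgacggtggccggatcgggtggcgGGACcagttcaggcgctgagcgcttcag
*Zfp790*, chr7:29829689-29829789 (plus strand): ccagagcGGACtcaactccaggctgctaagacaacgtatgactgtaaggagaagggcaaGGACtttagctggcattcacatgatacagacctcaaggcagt

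Each of these 3 windows had at least 1 GGAC and none had AAAC. The WT and R255K fold enrichments were 22.96 and 28.9 for *Zfp827*, 20.1 and 16.3 for *Zfp865*, and 19.2 and 8.29 for *Zfp790*. These 9 windows were picked for their peak height or motif, and the shares over all Zfp peaks are given below.

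Zfp genes carried m6A peaks more often than expressed genes in general. In WT cells 242 of 259 Zfp genes (93.4%, interval 89.7 to 95.9) had a peak on an exon, against 57.4% of all genes at the threshold. In R255K cells 182 (70.3%, 64.4 to 75.5) had a peak, against 43.6% of all. Related families had like shares in WT cells, with 97.1% of the 34 expressed Zbtb genes, all 16 Zscan and Zkscan genes and 82.0% of 50 other genes with the KRAB pattern. WT peaks numbered 1 on 88 Zfp genes, 2 on 89 and 3 or more on 65. None of the 17 Zfp genes without a WT peak had a peak in R255K cells. Among all 5062 genes at the threshold without a WT peak, 415 (8.20%) had one. With only 17 genes, none cannot be told apart from that share. The most peaks, 7, lay on *Zfp462*, a 33-finger protein needed for the pluripotent state. Its neighbours in this order, with 6 each, were *Zfp292*, *Zfp142*, *Zfp638* (a nuclear protein that binds DNA and RNA) and *Zfp644*.

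Of the 506 WT peaks on Zfp exons, 235 (46.4%, 42.1 to 50.8) had no overlapping peak in R255K cells, which is called lost here, against 47.9% of all 13870 exonic WT peaks. All peaks were lost on 62 of the 242 Zfp genes with a WT peak (25.6%, 20.5 to 31.5), against 31.5% over all genes with a peak. Some but not all were lost on 99 genes and none on 81. The share of peaks lost was thus near that of the transcriptome. The 235 lost peaks were weaker in WT cells, with a median fold enrichment of 4.98, against 8.87 for the 271 that were overlapped. Exonic WT peaks were divided by −log10 q into 4 groups of equal size. In the weakest group 91.6% of the Zfp peaks (84.3 to 95.7) and 82.3% of the peaks of other genes (81.0 to 83.6) were lost. In the strongest group the shares were 2.88% (1.12 to 7.17) and 4.36% (3.71 to 5.10). Where peaks overlapped, the fold enrichment was lower in R255K cells for 186 of 271 Zfp peaks (68.6%, 62.9 to 73.9) and for 70.7% of the peaks of other genes (69.6 to 71.8). Loss followed peak strength in both sets, and the intervals of the Zfp genes and of the other genes overlapped in the upper 3 groups.

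Peak summits were densest in the coding sequence on both sides of the finger array. In WT cells there were 0.755 summits per kb in the coding sequence before the array, 0.615 in the array, 0.879 in the coding sequence after it, 0.291 in the 3′UTR and 0.263 in the 5′UTR. The array held 173 summits, of which 94 lay in a finger (0.558 per kb) and 79 between fingers (0.701 per kb). In R255K cells the values were 0.439 before the array, 0.384 in it, 0.694 after it, 0.171 in the 3′UTR and 0.281 in the 5′UTR. Of the WT summits placed on the chosen transcript, 364 of 460 (79.1%) lay in the last exon and 90 (19.6%) within 200 bases of the stop codon. The lost share was 47.98% (40.7 to 55.4) in the array and 45.6% (40.4 to 51.0) elsewhere on Zfp exons. The authors kept only uniquely mapped reads, and how many reads of repeated finger sequence this removed is not known here.

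**Figure D1:**
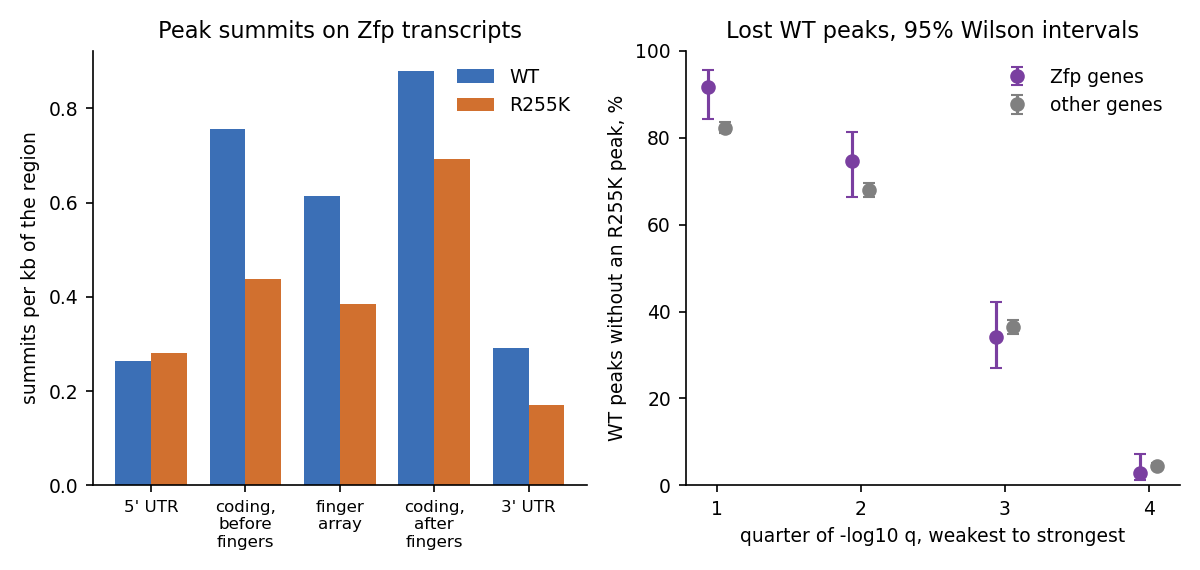
Left, m6A peak summits per kb of each region of the Zfp transcripts, in WT (blue) and R255K (orange) cells. Right, WT peaks without an overlapping R255K peak, in percent with 95% Wilson intervals, in 4 groups of −log10 q from weakest to strongest, for Zfp genes (purple) and other genes (grey), falling from 91.6% to 2.88% for Zfp genes and from 82.3% to 4.36% for the others.

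The motifs under the Zfp peaks were compared with those of other genes. GGAC lay within 100 bases of the summit in 294 of 482 Zfp peaks (61.0%, 56.6 to 65.3), against 80.1% of 12516 peaks of other genes (79.4 to 80.8). AAAC was present in 71.8% (67.6 to 75.6) against 50.7% (49.8 to 51.6), and AGAC in 72.6% (68.5 to 76.4) against 68.9% (68.1 to 69.7), and only the intervals of AGAC overlapped. The linker motif GAGAAACC, which contains AAAC, was found in 78 Zfp peaks (16.2%, 13.2 to 19.7) and in 166 peaks of other genes (1.33%, 1.14 to 1.54), so 78 of all 244 exonic WT windows with it belonged to Zfp genes. In the finger array 29.8% of the windows (23.5 to 37.1) held it, and GGAC was present in 52.6% of them (45.2 to 60.0). Only the strand of the gene was searched, and a match is not a mapped m6A site. Zfp sequence outside the peaks was not searched, so these shares cannot tell the peaks from the rest of the Zfp transcripts. The peaks of other genes here include those of Zfp genes under the FPKM threshold.

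Lost and overlapped Zfp peaks differed in GGAC and, in the wider window, in AGAC. GGAC was present in 49.8% of the lost peaks (43.3 to 56.3) and in 70.8% of the overlapped ones (65.0 to 76.0), while AAAC was present in 75.6% (69.5 to 80.7) and 68.5% (62.6 to 73.9). On other genes GGAC was present in 74.8% of the lost (73.7 to 75.9) and 85.0% of the overlapped peaks (84.1 to 85.9), and AAAC in 53.4% (52.2 to 54.7) and 48.2% (47.0 to 49.4). The GGAC intervals of lost and overlapped peaks did not overlap in either set, whereas the AAAC intervals did in the Zfp set. AGAC was present in 66.2% of the lost Zfp peaks (59.8 to 72.1) and in 78.2% of the overlapped ones (72.8 to 82.8). On other genes the AGAC shares were 68.7% (67.5 to 69.8) and 69.2% (68.1 to 70.3). Within 50 bases of the summit the AGAC intervals of lost and overlapped Zfp peaks overlapped, at 48.9% (42.4 to 55.4) and 59.5% (53.4 to 65.35). Overlapped peaks were also the stronger ones, and the part of peak strength in the motif differences was not tested.

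The lost Zfp peak with the highest fold enrichment, 19.2, was that in the array of *Zfp3* (chromosome 11, 70771764 to 70772887; −log10 q 53.1), while the other peak of *Zfp3* (fold enrichment 6.98) was overlapped in R255K cells at 6.61. The next highest were on *Zfp791* (13.6), *Zfp324* (13.4), *Zfp53* (12.6) and *Zfp949* (11.7). On *Zfp462* (chromosome 4, 54945048 to 55083563), the 2 overlapped peaks were the strongest of the 7, with WT and R255K values of 9.14 and 8.76 in the coding sequence and 11.4 and 12.2 in the 3′UTR, and the 5 lost peaks lay between 2.18 and 4.07, all in the array. *Zfp57*, which protects imprinted regions, kept both of its peaks, and the stronger (chromosome 17, 37009522 to 37010592) stood at 4.63 in WT and 6.22 in R255K cells.

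Zfp transcripts were short-lived. The half-life was computed from the mean of the decay rates from 0 to 4 h and from 0 to 8 h. In WT cells 219 of 259 Zfp genes (84.6%, 79.7 to 88.4) had a half-life under 4 h, against 27.7% of all genes. The median half-life of the Zfp genes was 1.98 h (quartiles 1.59 and 2.73 h), against 16.98 h over all genes. After 4 h of actinomycin D a median of 19.9% of the 0 h level was left and after 8 h 9.24%, against 88.2% and 64.1% over all genes. These values are relative to the sum of each library, which itself loses RNA, so they order transcripts and are not absolute. All libraries summed to between 13812160 and 18813640 counts. Scaled to *Gapdh*, 186 Zfp genes stayed under 4 h in WT cells.

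**Figure D2:**
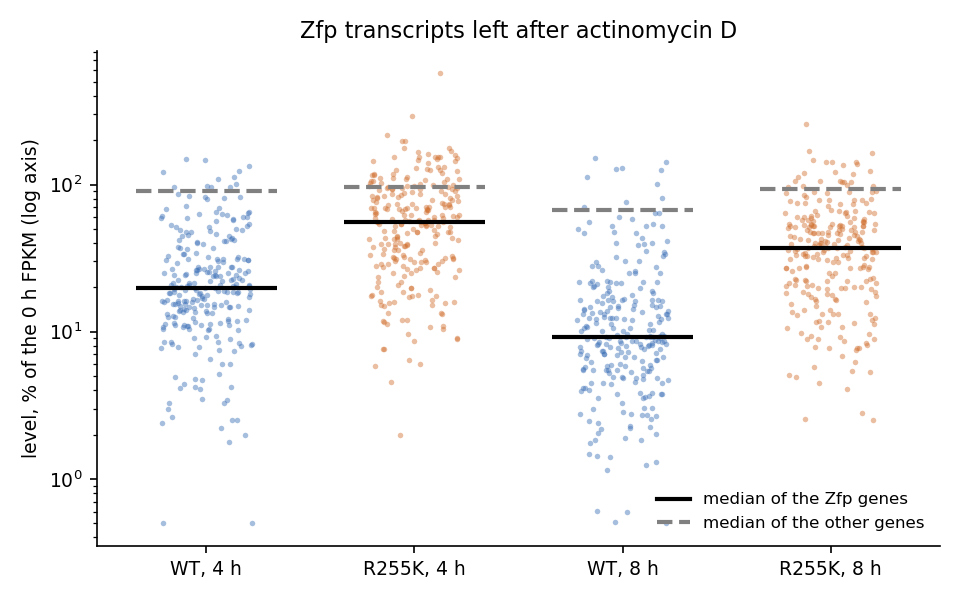
FPKM left at 4 and 8 h of actinomycin D, in percent of the 0 h FPKM (log axis), for each of the 259 Zfp genes in WT (blue) and R255K (orange) cells, with 3 points under 0.5% drawn at 0.5%. The medians of the Zfp genes (solid lines) are 19.9% and 55.3% at 4 h and 9.24% and 37.3% at 8 h, all below the medians of the other genes (dashed lines).

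The short half-life was shared by related families. Among other genes with a WT peak, 40.6% had a WT half-life under 4 h, against 87.6% of the 242 Zfp genes with a WT peak. Of the 17 Zfp genes without a WT peak, 7 (41.2%) had a half-life under 4 h, against 8.12% of all genes without a WT peak. The 34 expressed Zbtb genes, whose proteins join fingers to a BTB domain, had a median of 1.95 h in WT cells, and the 16 Zscan and Zkscan genes, with a SCAN domain, had 1.81 h. The 50 other expressed genes whose protein had the KRAB pattern had 2.07 h. All 3 medians lay between the quartiles of the Zfp genes.

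Half-life varied with the protein. With 0 to 5 fingers 29 of 55 Zfp genes had a WT half-life under 4 h and the median was 3.59 h. With 6 to 10 fingers it was 70 of 78 and 1.89 h, and with 11 or more it was 118 of 123 and 1.90 h. With the KRAB pattern 129 of 138 were under 4 h (median 1.90 h), and without it 88 of 118 (2.19 h). Genes within 250 kb of another Zfp gene had a median of 1.91 h and the others 2.06 h. In R255K cells the medians by finger number were 7.60, 4.77 and 4.38 h.

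**Figure D3:**
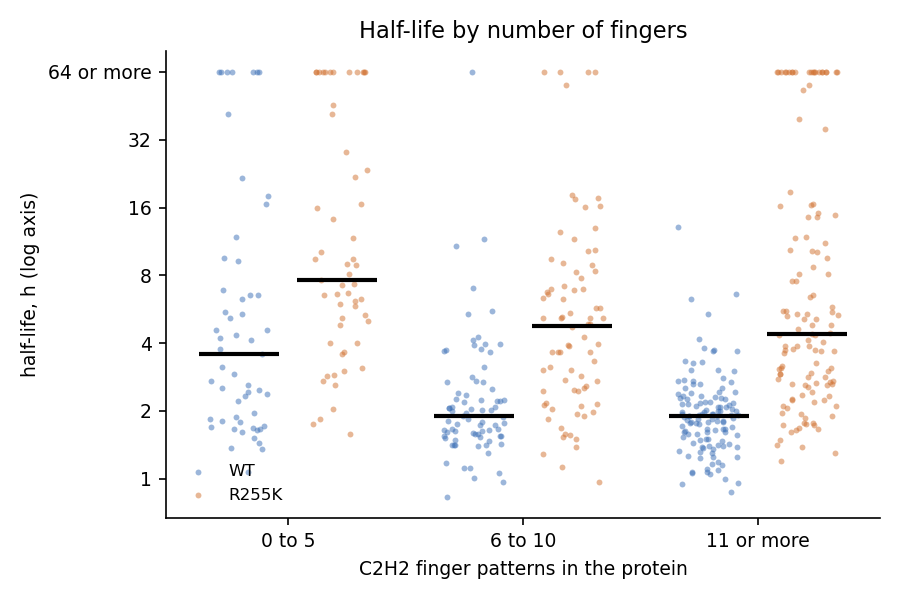
Half-life (log axis) of each Zfp transcript by the number of C2H2 fingers in its protein, in WT (blue) and R255K (orange) cells, with black lines at the medians and all transcripts at 64 h or more, or without decay, drawn at the top. The WT medians are 3.59, 1.89 and 1.90 h and the R255K medians 7.60, 4.77 and 4.38 h.

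In R255K cells fewer Zfp transcripts were short-lived. A half-life under 4 h was found for 107 genes (41.3%, 35.5 to 47.4), against 11.1% of all genes, and all 107 were also under 4 h in WT cells. The median half-life was 5.18 h. Relative to the library sum, the decay rate was higher in WT than in R255K cells for 243 of 259 Zfp genes (93.8%, 90.2 to 96.2), against 63.2% of all genes, but relative to *Gapdh* this held for 63 Zfp genes and 5.14% of all genes. *Gapdh* itself moved widely, with 995, 242 and 2357 counts at 0, 4 and 8 h in the WT libraries. In the R255K libraries it had 331, 787 and 1875. With TMM scaling 233 genes, and with median-of-ratios scaling 231 genes, had the higher rate in WT cells, against 50.7% and 49.8% of all genes. A decay (a mean rate above 0) was found in WT but not in R255K cells for 28 Zfp genes (10.8%), and the reverse for 1, *Zfp511* (0.386%). In 7 (2.70%) it was found in neither. In WT cells 251 Zfp genes decayed, in R255K cells 224 and in both 223. Over all 11869 genes the counts were 7159, 6470 and 5504.

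Relative to the library sum, and without regard to GC content, the half-life ratios of the Zfp genes were close to those of all genes. Both half-lives could be computed for 223 Zfp genes, and the R255K half-life was over 1.5 times the WT one in 158 of them (70.9%, 64.6 to 76.4), against 68.8% of 5504 genes overall. The median ratio was 2.05, against 1.98 over all genes and 2.10 over other genes with a WT peak, and relative to *Gapdh* it turned to 0.775, against 0.549 over all genes. In 1 Zfp gene (0.448%), *Zfp414*, the ratio was below 1/1.5, against 5.78% of all genes. Zfp genes that lost no WT peak had a median ratio of 1.67, those that lost some had 2.2 and those that lost all had 2.53. The GC content of the exons moved with these groups, with medians of 46.8%, 45.6% and 41.8%. The 0 h level did too, with medians of 6.21, 4.32 and 3.29 FPKM in WT and 4.47, 2.80 and 1.71 FPKM in R255K cells. The part of either was not tested.

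**Figure D4:**
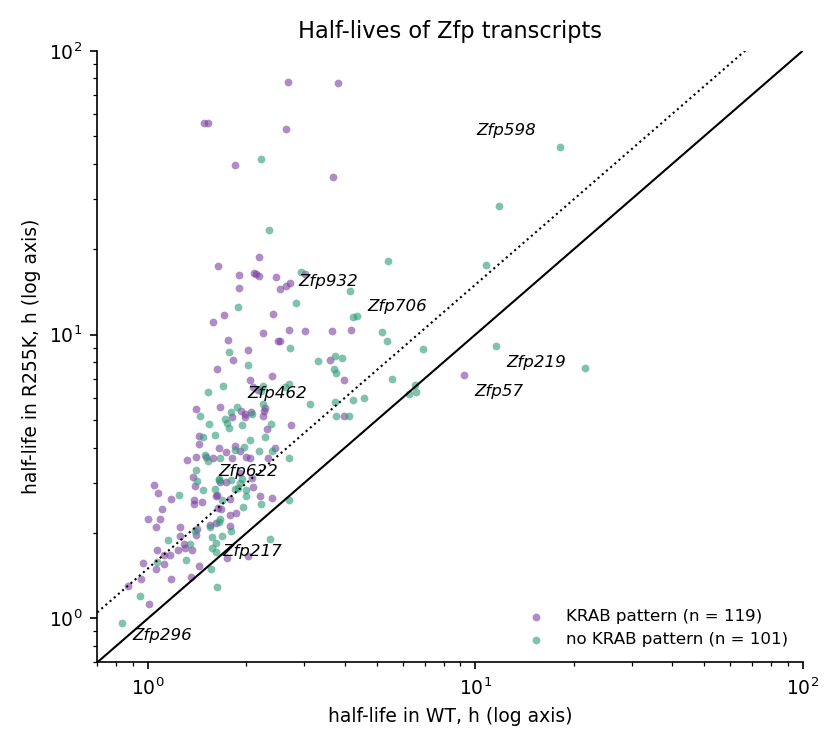
Half-life in R255K against WT cells (both log axes) for the 220 Zfp transcripts with both half-lives under 100 h, with (purple) and without (green) the KRAB pattern. The solid line marks equal half-lives and the dotted line a ratio of 1.5, and most transcripts lie above the dotted line while *Zfp57* and *Zfp219* lie below the solid one.

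The ratio followed GC content in Zfp genes and in others alike. Both decay rates start from the 0 h libraries that also gave the level before actinomycin D below, so these results are not independent. All genes were divided by GC content into 4 groups of equal size. In the lowest, which held 134 of the 259 Zfp genes, the median ratio was 2.82 for Zfp genes and 2.76 for other genes. In the following groups it was 1.88 and 2.15, then 1.46 and 1.78, and in the highest 1.42 and 1.60. In every group but the lowest, the Zfp median was thus the lower one. With the GC trend of all genes removed, the median ratio was 1.69 for Zfp genes and 1.98 for all genes. The WT half-lives of the Zfp genes had medians of 2.01, 1.94, 1.85 and 2.70 h from the lowest to the highest group. The 24 Zfp genes of chromosome 4, with a median GC content of 37.4%, had a median ratio of 4.44, which rests on the 16 with both half-lives. Of these 24 genes, 11 shared over 20% of their 50-base stretches with another Zfp transcript, so their counts are uncertain.

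The level before actinomycin D was lower in R255K cells for many Zfp genes. The median 0 h log2 ratio (R255K over WT, of FPKM plus 1) was −0.36 for Zfp genes and 0.05 for all genes, a difference of −0.41 that was −0.57 when scaled to *Gapdh*, where the Zfp median itself turned to 0.80. The genes were chosen by the mean of these same 0 h levels, so the values are a description. In R255K cells 36 Zfp genes were under 1 FPKM and in WT cells 6, and these passed only through the other genotype. Among the 217 at 1 FPKM or more in both, the median was −0.29, against 0.04 for all such genes. The ratio was below 0 for 183 Zfp genes (70.7%, 64.8 to 75.9), against 46.5% of all genes. A log2 ratio of −1 or less was found for 38 Zfp genes (14.7%, 10.9 to 19.5), against 5.92% of all genes, and of 1 or more for 2 (0.772%), against 6.44% of all genes. Genes with the KRAB pattern had a median of −0.59 and those without it −0.06, at median GC contents of 42% and 50.1%. In the lowest GC group the median was −0.74 for Zfp genes and −0.37 for other genes, and in the highest 0.19 and 0.27. With the GC trend of all genes removed, the Zfp median was −0.16. The 12 Zfp genes of chromosome 11, a chromosome whose 984 expressed genes had a median of 0.53 in R255K over WT, had a median of 0.03. In bulk RNA, fewer cells expressing a gene and less of its RNA per cell cannot be told apart.

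**Figure D5:**
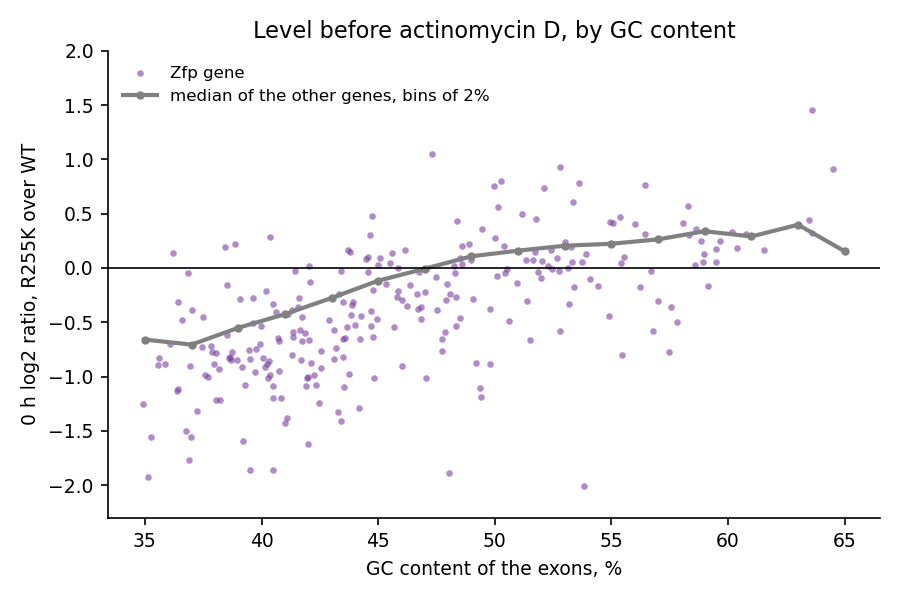
Log2 ratio of the 0 h FPKM (plus 1) in R255K over WT cells against the GC content of the exons, for each Zfp gene (purple) and as the median of the other genes in bins of 2% (grey). The grey line lies at −0.66 in the lowest bin and at 0.40 at 62 to 64%, and 188 of the 259 Zfp genes in these bins lie below it.

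The change from 4 to 8 h does not use the 0 h libraries that chose the genes. Over these hours the Zfp genes changed by a median log2 of −0.93 in WT and −0.49 in R255K cells, and all genes by −0.36 and −0.10. The difference between the genotypes had a median of 0.38 for Zfp genes, 0.21 for all genes and 0.41 for other genes with a WT peak. It was above 0 for 192 Zfp genes (74.1%, 68.5 to 79.1), against 67.8% of all genes. A scaling shifts every gene by the same amount here, and the median over all genes went from 0.21 to 0.00 (TMM) and −0.12 (median of ratios). The Zfp median was 0.17 above that of all genes, and 0.049 above it when Zfp genes under 1 FPKM were included. In the latter comparison all genes stayed those at the threshold, so it is not like for like. Zfp genes with a WT peak had a median of 0.43 and the 17 without one had 0.09.

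Among named genes, the imprint and retroelement repressors included the most abundant Zfp transcript. *Zfp57* (chromosome 17, 37001163 to 37010635) stood at 129, 103 and 61.2 FPKM at 0, 4 and 8 h in WT and at 81.8, 56.6 and 36.7 FPKM in R255K cells. Its level was lower in R255K cells at every time. Its half-lives were 9.22 h (WT) and 7.22 h (R255K), and the ratio was 0.783 (0.706 to 0.868), so unlike most Zfp transcripts it did not decay more slowly in R255K cells on this scale.

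*Zfp568*, a repressor of a placental *Igf2* transcript, fell from 51.6 to 14.3 and 4.93 FPKM in WT cells and from 43.4 to 24.3 and 17.8 FPKM in R255K cells, a half-life ratio of 2.39 (2.25 to 2.55). *Zfp809*, which silences proviral DNA, had half-lives of 2.49 and 9.49 h, a ratio of 3.81 (2.39 to 6.08). *Zfp932*, a repressor of endogenous retroviruses, had 2.64 and 14.8 h, a ratio of 5.63 (2.24 to 14.1), and all 3 of its WT peaks were lost. *Zfp445*, which acts beside *Zfp57* at imprints, fell from 15.0 to 6.73 and 1.88 FPKM in WT cells, while in R255K cells it stood at 5.57, 8.49 and 4.94 FPKM. In R255K cells its 4 h value was thus above its 0 h value, so no half-life could be computed. *Zfp708* did not reach the threshold.

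Of the stem cell regulators, *Zfp296*, a partner of the reprogramming factors, had the shortest WT half-life of all Zfp genes with at least 50 counts at 0 h. It fell from 35.0 to 0.62 and 0.18 FPKM in WT and from 38.3 to 0.77 and 0.97 FPKM in R255K cells, with half-lives of 0.831 and 0.964 h. Its 4 and 8 h values rest on only 19 and 5 counts in WT cells, on 29 and 37 in the R255K line, and its exons overlap *Gemin7*. The next shortest in WT cells were *Zfp87* (0.871 h), *Zfp105* (0.943 h), *Zfp472* (0.954 h) and *Zfp599* (0.963 h). In this order, their 4 and 8 h values in WT cells rest on 1 and 4, 11 and 5, 4 and 1, and 5 and 6 counts. Counts under 3 were set to 3. The intervals of these half-lives overlap each other and that of *Zfp296*, so the order is not settled. All of these genes stayed under 1.6 h in R255K cells.

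*Zfp462* fell from 21.6 to 4.45 and 1.37 FPKM in WT and from 14.7 to 8.04 and 6.67 FPKM in R255K cells, a half-life ratio of 2.98 (2.72 to 3.26). *Zfp281*, a transcription factor that guides exit from pluripotency, had half-lives of 1.72 and 5.03 h, a ratio of 2.93 (2.59 to 3.31), although neither of its WT peaks was lost. *Zfp143*, which binds at promoters and chromatin loops, had a ratio of 1.79 (1.54 to 2.08), *Zfp217*, which binds DNA and restrains METTL3 in stem cells, 1.23 (1.14 to 1.34), and *Zfp706*, a regulator of the exit from self-renewal, 2.68 (2.33 to 3.07). All 6 regulators had a higher rate in WT cells on the scale of the library sum, as did 93.8% of all Zfp genes. In WT cells 5 of 6 were under 4 h, against 84.6% of the Zfp genes, and in R255K cells 3 of 6, against 41.3%.

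Of 7 expressed Zfp genes listed for RNA, ribosome and spindle proteins, 2 had a WT half-life under 4 h, *Zfp622* and *Zfp638* (3.14 h), against 84.6% of all Zfp genes and 27.7% of all genes. The list was put together by hand, and the difference was not tested. *Zfp622*, a ribosome biogenesis factor, fell from 56.2 to 13.6 and 3.38 FPKM in WT and from 79.5 to 38.1 and 21.9 FPKM in R255K cells, a half-life ratio of 2.05 (1.91 to 2.195). *Zfp598*, the ubiquitin ligase that senses collided ribosomes, had half-lives of 18.1 and 45.7 h. *Zfp207*, a spindle and splicing protein, stood at 54.0, 54.0 and 41.3 FPKM in WT and 44.4, 52.7 and 43.4 FPKM in R255K cells. *Zfp346*, which binds double-stranded RNA, had 11.8 and 28.3 h. *Zfp106*, which binds RNA and is needed by motor neurons, was at 50.1, 60.9 and 65.2 FPKM in WT and at 38.3, 58.6 and 65.0 FPKM in R255K cells. *Zfp326* was above its 0 h level at 8 h in both genotypes. *Zfp593* was below the threshold.

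In all, 8 Zfp transcripts had no decay in WT cells by the mean rate on the scale of the library sum. Beside *Zfp106* and *Zfp326* they were *Zfp277*, *Zfp692*, *Zfp185*, *Zfp523*, *Zfp511* and *Zfp512*, the last named only to complete the list. *Zfp511* stood at 123% of its 0 h level at 4 h and at 80.6% at 8 h in WT cells, so it did fall by 8 h. *Zfp106* had 4 WT peaks and *Zfp511* had 1, and the other 6 had none. Among the most abundant genes were also *Zfp428*, with half-lives of 4.58 and 5.99 h, *Zfp706*, with 4.36 and 11.7 h, and *Zfp219*, with 11.5 and 9.09 h. *Zfp219* and *Zfp57*, with *Zfp263* (ratio 0.807), *Zfp768* (0.792) and *Zfp414* (0.353, 0.117 to 1.06), had the smallest half-life ratios.

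The largest ratios rest on R255K transcripts whose rate was close to 0. *Zfp975*, *Zfp426* and *Zfp580* had R255K half-lives of 206, 205 and 939 h. *Zfp984* (ratio 29.02, 1.10 to 764) and *Zfp987* (21.5, 1.69 to 273) followed, both on chromosome 4. The interval of the R255K rate included no decay in all 5. *Zfp987* shared 82.2% of its 50-base stretches with other Zfp transcripts, so its counts are uncertain. *Zfp987* stood at 8.18, 1.58 and 0.52 FPKM in WT and 2.12, 2.67 and 1.01 FPKM in R255K cells.

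At 0 h the largest log2 ratios of R255K over WT were those of *Zfp580* (1.45), *Zfp365* (1.05), *Zfp511* (0.93), *Zfp771* (0.91) and *Zfp637* (0.80). *Zfp580* had 5.34 FPKM in WT and 16.3 FPKM in R255K cells. The smallest were those of *Zfp516* (−2.0), *Zfp988* (−1.93), *Zfp704* (−1.89), *Zfp977* (−1.86) and *Zfp292* (−1.86). *Zfp292* stood at 8.73, 1.42 and 0.63 FPKM in WT and 1.68, 1.57 and 0.54 FPKM in R255K cells. At 4 and 8 h its levels in both genotypes were thus close, while at 0 h they were not.

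Of 10 partners of KRAB repression, 3 (*Atf7ip*, *Morc3* and *Smarcad1*) had a WT half-life under 4 h, a share near the 27.7% of all genes. *Trim28* was at 627, 787 and 852 FPKM in WT and 571, 566 and 642 FPKM in R255K cells and had no peak. *Setdb1* was at 29.2, 25.7 and 17.4 FPKM in WT and 28.4, 31.9 and 30.4 FPKM in R255K cells. As checks of the cells, *Pou5f1*, *Sox2*, *Nanog*, *Esrrb* and *Dppa5a* were above 80 FPKM at 0 h in both genotypes. With *Zfp42*, all 6 stem cell markers were lower in R255K cells at 0 h, as were 46.5% of all genes. Their log2 ratios ran from −0.17 for *Pou5f1* to −1.10 for *Esrrb*, which stood at 173 and 80.4 FPKM. Of 6 fibroblast markers *Lum* was at 0 in all libraries and *Postn* at 0 h. At 0 h *Thy1* was at 1.55 FPKM in WT and 4.01 FPKM in R255K cells, and *Col1a1* at 0.0787 and 1.46 FPKM. *Col1a2* was at 0.0139 and 0.391 FPKM, and *Col3a1* at 0 and 0.0716 FPKM. Which cells the fibroblast marker transcripts came from, and any part of such cells in the results, was not tested. *Mettl14* had 5.27 FPKM in WT and 2.58 FPKM in R255K cells at 0 h.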

How the data were processed

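MeRIP-seq libraries (2 IP and 2 input per genotype) and actinomycin D libraries (1 per genotype and time) were analysed. In all of them the authors discarded rRNA reads with bowtie2 2.2.6, mapped what remained to mm10 (hisat2) and retained uniquely mapped reads with Picard 2.16.0 and SAMtools 0.1.09. The deposited counts are whole numbers per gene without normalization. How they were counted is not given in the sources used here. The authors called peaks with MACS2, and the deposited fold enrichment (a ratio over local background) and −log10 q are those of 1 list per genotype. How libraries were combined, and their depth, is unknown.

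FPKM came from the counts, the deposited exon length and the library sum. A decay rate was the log of the 0 h level over a later level, divided by the hours between, averaged over 4 and 8 h, with counts under 3 at 4 and 8 h set to 3, and medians over all genes take genes without decay as infinitely long-lived. Half-life intervals came from Poisson errors of the counts, and shares have Wilson intervals. A peak was on a gene if it overlapped an exon by at least 1 bp. Coding sequences were read from mm10 by GENCODE vM21. The C2H2 pattern was Cys, 2 to 4 residues, Cys, 12 residues, His, 3 to 5 residues, His. The rate computation was run on counts simulated with exponential decay and Poisson error. These hold no differences between libraries or lines, so this checks the computation only.

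Named genes were those with at least 50 counts at 0 h that had the 5 highest or lowest values of each measure, the 5 with most WT peaks, the 5 strongest lost peaks, and lists by role. Members, lists and rules were chosen with earlier results of these data known. The alternatives were other scalings (TMM from edgeR 4.0.16 in R 4.3.3), filters, floors, time points and peak thresholds. Further tools were bedtools 2.31.1, pysam 0.24.0, statsmodels 0.14.6, matplotlib 3.10.9, scipy 1.17.1, pandas 2.3.3 and numpy 2.4.6 under Python 3.11.15.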

Additional observations from a re-analysis of the deposited data

Results flagged for a closer look

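Of the 52 named Zfp genes, 3 moved in opposite directions from 0 to 8 h in the genotypes, with 1 library per point, so the difference was not tested. The log2 change of *Zfp638* was −3.24 in WT and 0.70 in R255K cells, where the 4 h level (6.79 FPKM) was above the 0 h level (2.33 FPKM). For *Zfp365* the changes were −1.08 and 0.30, and for *Zfp580* they were −0.89 and 0.073. Over all Zfp genes 13 (5.02%) had opposite directions, all of them down in WT and up in R255K cells, against 17.9% of all genes.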

How the results depend on the processing

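No paired analysis was possible because there was 1 library per genotype and time and 1 peak list per genotype. For the same reason no replicate could be left out. Of 96 recalculations, 82 kept the direction and stayed within 1.5 times (counts) or within the 95% order-statistic interval of the median over genes (medians), 12 moved and 2 reversed. Scaling to *Gapdh* reversed the median half-life ratio to 0.775 and the median 0 h log2 ratio to 0.80, left 12 Zfp genes with a ratio over 1.5 and 63 with the higher rate in WT cells, and put the median 4 to 8 h difference at 2.54. That difference was 0.17 with TMM, 0.045 with median-of-ratios scaling and 0.26 without the FPKM filter. With the GC trend removed, the median ratio was 1.69, against 1.98 over all genes, and the median 0 h log2 ratio was −0.16. Windows of 50 bases to each side held GGAC in 45.9%, AAAC in 52.3%, AGAC in 54.6% and GAGAAACC in 9.13% of the Zfp peaks. A shorter window holds fewer motifs by construction, and for the other changes the cause was not tested.

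Leaving out Zfp genes with shared 50-base stretches, or those under 1 FPKM in a genotype, both chosen after seeing the data, moved none of the 6 half-life and level results by more than that, nor did leaving out chromosome 11 or genes that overlap another gene. Counts of genes with a peak and of lost peaks stayed within 1.5 times of the values above under each alternative run for them. Lost peaks numbered 175 without genes that overlap another gene and 330 where an R255K peak had to cover at least 50% of the WT peak. Single libraries, an unknown counting method and low counts at 8 h limit every half-life, since 26 Zfp genes had under 50 counts at 0 h in a genotype.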
